A study of Homo sapiens with 30 samples.

Results

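RNA-seq compared 5637 cells, a human bladder carcinoma line, transfected with siANKRD10-1 and the same cells transfected with the negative control siNC. The comparison takes the 3 libraries titled siANKRD10-1 and the 3 titled siNC, 6 of the 30 samples of the series, and all genes of the knockdown count table. Both siRNAs were delivered with Lipofectamine, so the control cells also carry a transfected siRNA. An siRNA is a short duplex RNA that guides the silencing machinery of the cell to cut a matching transcript. ANKRD10, a gene of the ankyrin repeat domain family, is spliced into isoforms, and the study named the target isoform of this siRNA ANKRD10-1 and that of a second siRNA, siANKRD10-2, ANKRD10-2. The study lists more than 1 siRNA for each isoform, and the sample titles do not say which was used, or whether they were pooled. Each name therefore stands here for whatever siRNA its label covers. The study examined the isoform ANKRD10-2 together with MYC, a transcription factor that binds DNA with its partner MAX and drives genes of growth, metabolism and ribosome assembly. All libraries come from 1 cell line, and the duration of the transfection was not given in the sources used here. The labels describe the siANKRD10-2 libraries, and those with ANKRD10-1 overexpression or an empty Vector, as 5637 cells only, whereas the study describes siANKRD10-2 and ANKRD10-1 overexpression in RBPMS-knockout 5637 cells. The background of those libraries is therefore not settled.

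Total counts were between 32329422 and 32784584 in siNC and between 31279282 and 32480073 in siANKRD10-1, and 18785 of 56303 genes had enough counts to be tested. Keratin and epithelial markers identified an epithelial population, with KRT5 between 21065 and 29239 raw counts and EPCAM between 9073 and 10444 in the 6 libraries. PTPRC, the defining leukocyte marker, had 0 counts in every library, and the 9 leukocyte markers, of which 3 were at 0 throughout, summed to between 413 and 461 counts in siNC and between 444 and 480 in siANKRD10-1. Most of that sum was CD68, with between 400 and 445 counts in siNC and between 432 and 465 in siANKRD10-1. The 7 endothelial markers summed to between 54 and 72 counts in siNC and between 59 and 77 in siANKRD10-1. The 9 fibroblast markers summed to between 1426 and 1454 counts in siNC and between 1610 and 1623 in siANKRD10-1, and 0 of the 6 that could be tested passed by edgeR, with 3 higher at an unadjusted p under 0.05 and 0 called by DESeq2. Most of this sum came from COL1A1 (847 to 932 counts in siNC, 947 to 1012 in siANKRD10-1) and THY1 (429 to 505 and 534 to 573). In every library DCN, LUM, PDGFRA, PDGFRB and COL3A1 each had at most 34 counts.

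The targeted gene was examined first. ANKRD10 is a minus-strand gene of chromosome 13 (GRCh38, 110878540 to 110915069). Its normalized counts were 1825, 1717 and 1870 in the siNC libraries and 1605, 1495 and 1471 in the siANKRD10-1 libraries. The groups did not overlap, and ANKRD10 fell by 0.24 on the log2 scale (SE 0.06, adjusted p = 0.0159 by edgeR's quasi-likelihood test). These counts add up all transcripts of the gene, so the isoform named as the target was not measured on its own. The call was lost without siNC replicate 1 (adjusted p = 0.0607 by edgeR) and without siANKRD10-1 replicate 3 (adjusted p = 0.0636 by edgeR). After siANKRD10-2 the log2 fold change of ANKRD10 against the same siNC libraries was −0.25, and the direct difference between the siRNAs was 0.00 (SE 0.06, adjusted p = 0.985 by edgeR). In cells with ANKRD10-1 overexpression, ANKRD10 rose by 0.67 on the log2 scale against Vector (SE 0.04, adjusted p = 4.44e-09 by edgeR).

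With edgeR's quasi-likelihood test, Benjamini-Hochberg adjustment across the tested genes and a threshold of 0.05, 1991 genes (10.6%) were differentially expressed after siANKRD10-1. Of these DEGs, 954 (5.08% of the tested genes) were higher and 1037 (5.52%) were lower. Every list count against siNC below is to be read beside these shares. Most of the differences were small, since the median absolute log2 fold change of the DEGs was 0.33 and 1628 of them (81.8%) were under 0.5. A change of at least 1 on the log2 scale in either direction was reached by 42 higher genes (0.224%) and 27 lower genes (0.144%). The 3 libraries of siANKRD10-1 did not overlap the 3 of siNC for 5318 genes (28.3%). The median log2 fold change of all tested genes was 0.00. Nothing in the labels says that the libraries came from separate cultures, so the p-values measure the spread between these libraries, which may be technical, and an exact permutation test of 3 against 3 cannot give a p under 0.1. The counts of DEGs depended on the libraries, with 503 higher and 570 lower without siNC replicate 1, 429 and 520 without siNC replicate 2, 492 and 547 without siANKRD10-1 replicate 1, and 621 and 682 without siANKRD10-1 replicate 3.

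**Figure D1:**
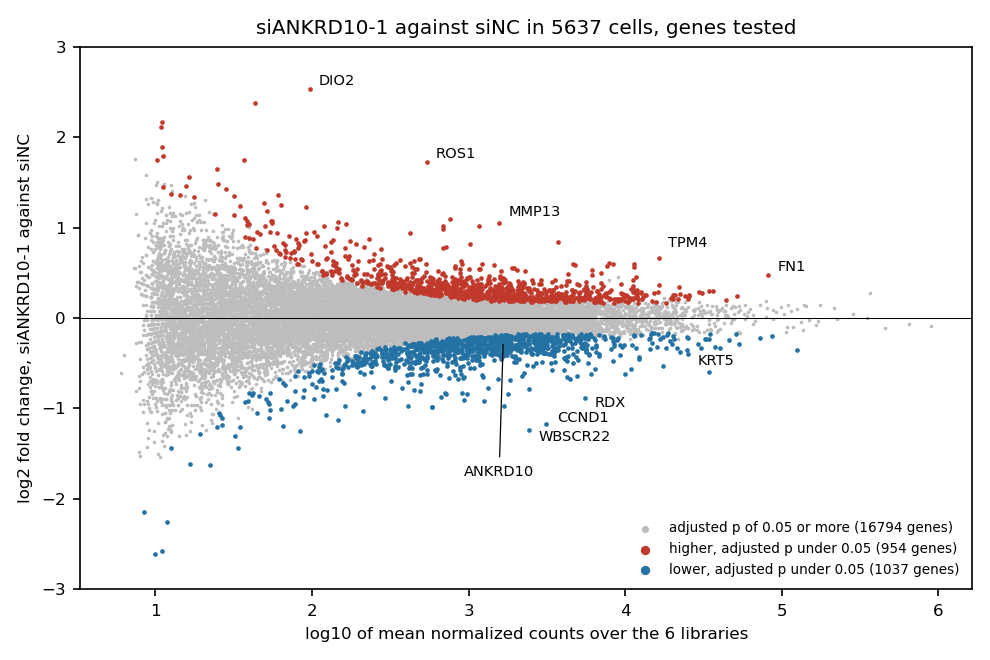
Log2 fold change of each tested gene (vertical axis, siANKRD10-1 against siNC) against the log10 of its mean normalized counts over the 6 libraries (horizontal axis), with the 954 higher DEGs in red, the 1037 lower DEGs in blue and the 16794 other genes in grey. Most coloured points lie within 0.5 of 0, and ROS1, DIO2, CCND1 and WBSCR22 stand away from genes of like abundance.

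The largest rise was that of ROS1, a receptor tyrosine kinase that acts as an oncogene when fused. This ranking and those below covered only genes with a current RefSeq symbol and at least 100 normalized counts. ROS1 is a minus-strand gene of chromosome 6 (GRCh38, 117288300 to 117425855). Its normalized counts were 241, 289 and 223 in siNC and 848, 887 and 751 in siANKRD10-1. Every siANKRD10-1 library was above every siNC library, and the log2 fold change was 1.72 (SE 0.10, adjusted p = 4.06e-09 by edgeR). Per length, ROS1 went from 0.993 to 3.28 RPKM (counts scaled for exon length and library size), a low level beside FN1, the fibronectin gene, at 124 and 171 RPKM. DIO2, which encodes the deiodinase that activates thyroid hormone, was below the limit of abundance and was picked out after its values were seen. DIO2 had 31.2, 27.7 and 26.1 normalized counts in siNC and 178, 138 and 176 in siANKRD10-1, a difference of 2.53 on the log2 scale (SE 0.19, adjusted p = 1.06e-07 by edgeR).

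Signalling genes and long non-coding RNAs were also among the 12 largest rises. NKILA, a long non-coding RNA known as an inhibitor of NF-κB signalling, had 526, 489 and 433 normalized counts in siNC and 976, 1100 and 1010 in siANKRD10-1 (log2 fold change 1.09, SE 0.08, adjusted p = 1.06e-07 by edgeR). It shares 13.2% of its exon bases with PMEPA1 on the other strand, and PMEPA1, a TGF-β target, was higher by 0.32 on the log2 scale. PLCB2, a phospholipase C, rose by 1.06 and IL7R, the receptor chain for interleukin 7, by 1.04 on the log2 scale, and both were low genes, with at most 1.13 RPKM in either group. LINC01468, a long intergenic non-coding RNA, rose by 0.99. Normalized counts of NNMT, the nicotinamide N-methyltransferase that consumes methyl donors, were 401, 512 and 446 in siNC and 913, 926 and 923 in siANKRD10-1, which was a difference of 1.02 on the log2 scale (SE 0.08, adjusted p = 2.97e-07 by edgeR). ERP27, an endoplasmic reticulum protein, and HABP4, which binds hyaluronan and RNA, completed the rises with log2 fold changes of 0.96 and 0.94. HABP4 shares 27.0% of its exon bases with CDC14B on the other strand. IL32, a cytokine gene, was among those with the smallest p-values, with 698, 745 and 782 normalized counts in siNC and 1276, 1239 and 1398 in siANKRD10-1 (log2 fold change 0.81, SE 0.07, adjusted p = 6.44e-07 by edgeR).

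The deepest fall under the same limits was in WBSCR22, the methyltransferase gene now named BUD23, which modifies 18S rRNA during assembly of the small ribosomal subunit. WBSCR22 is on chromosome 7 of GRCh38 from 73683025 to 73705161. Its normalized counts were 3357, 3292 and 3533 in siNC and 1445, 1511 and 1360 in siANKRD10-1, so that the groups were far apart relative to their spread. The log2 fold change was −1.24 (SE 0.06, adjusted p = 6.82e-10 by edgeR), and 12.9% of its exon bases are shared with genes on the other strand.

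CCND1 encodes cyclin D1, which activates CDK4 and CDK6 in the G1 phase of the cell cycle. CCND1 is a plus-strand gene of chromosome 11 (GRCh38, 69641087 to 69654474). It had 4191, 4274 and 4516 normalized counts in siNC and 2057, 1842 and 1845 in siANKRD10-1. No library of either group came near the other group, and CCND1 fell by 1.18 on the log2 scale (SE 0.06, adjusted p = 1.02e-09 by edgeR). Of its exon bases, 10.3% are shared with ORAOV1 on the other strand. Among 20 tested G1 cyclins, kinases and inhibitors, a list chosen after the values were seen, CDK6 was higher (0.30) and CCND1, CCND3 (−0.49), CDK2 (−0.27) and CDKN1A (−0.22) were lower, whereas CDK4 (0.07) did not pass. Without siNC replicate 2, 1 of these 4 lower calls was left, 2 were left without siNC replicate 1, siANKRD10-1 replicate 1 or siANKRD10-1 replicate 3, and CDK6 lost its call without siNC replicate 2 or siANKRD10-1 replicate 1 (adjusted p up to 0.078 by edgeR). Of 45 mitosis genes, 0 were higher (3 at an unadjusted p under 0.05 by edgeR, 0 by DESeq2). In this list 8 were lower (17.8%, beside 5.52% of all tested genes), with a median of −0.09. CENPE (−0.39), the kinesin KIF20A (−0.29) and the proliferation marker MKI67 (−0.32) led the lower ones, and 3 were lower without siANKRD10-1 replicate 1. Of 46 DNA replication genes, 1 was higher and 2 were lower (2.17% and 4.35%, beside 5.08% and 5.52% of all tested genes), with a median of −0.02. In this list 0 were lower without siNC replicate 1, siNC replicate 2, siANKRD10-1 replicate 1 or siANKRD10-1 replicate 3.

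**Figure D2:**
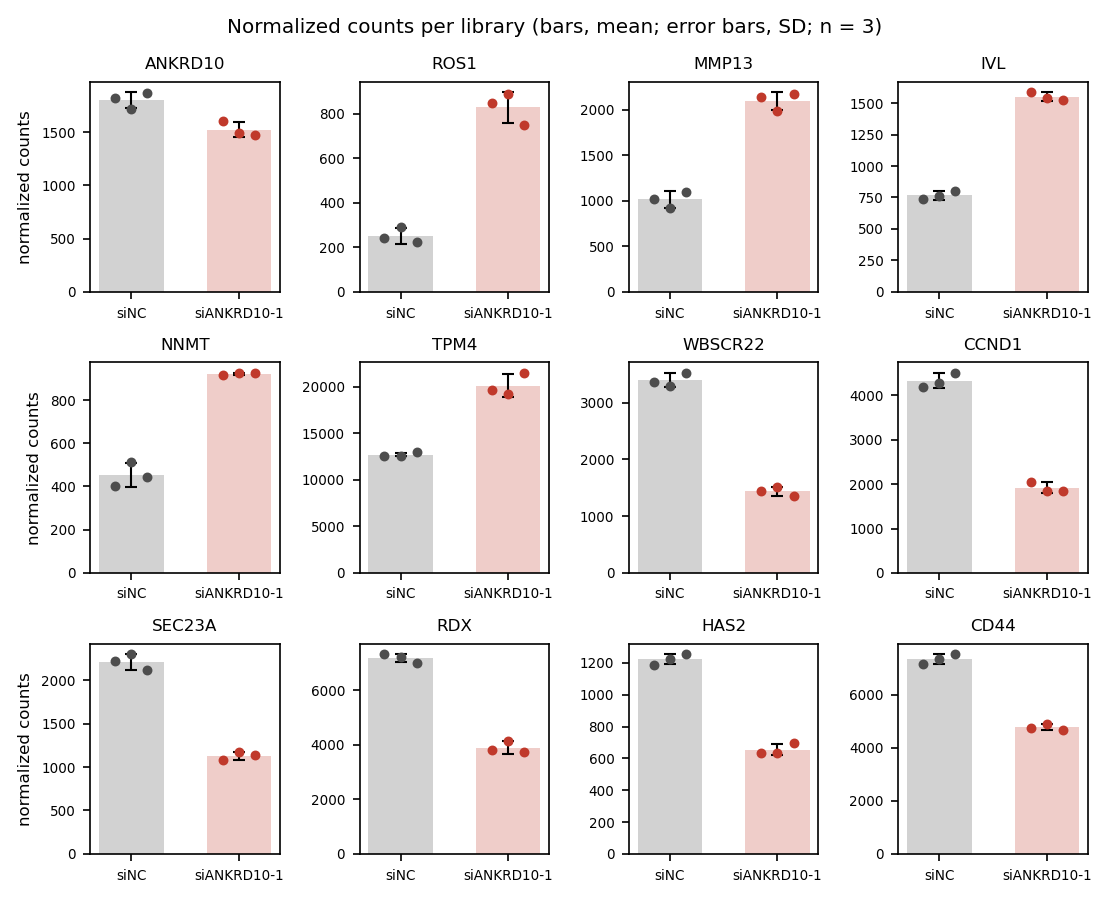
Normalized counts (vertical axes, starting at 0) of 12 genes in the 3 siNC libraries (grey) and the 3 siANKRD10-1 libraries (red), with bars for the mean and error bars for the SD (n = 3). The groups do not overlap in any panel, and ANKRD10, from 1717 to 1870 against 1471 to 1605, shows the smallest separation.

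The 12 largest falls also included genes of the secretory route and of the cell surface. SEC23A, a component of the COPII coat that carries cargo out of the endoplasmic reticulum, had 2218, 2301 and 2111 normalized counts in siNC and 1083, 1171 and 1136 in siANKRD10-1 (log2 fold change −0.97, SE 0.06, adjusted p = 1.49e-08 by edgeR). Its paralog SEC23B had a log2 fold change of 0.08 (adjusted p = 0.442 by edgeR). In the list of 32 genes for clathrin, COPI and COPII coats, 2 were higher and 2, SEC23A and SEC24B (−0.37), were lower (6.25% each, median 0.05), close to the shares of all tested genes. MGAT2, a Golgi enzyme of N-glycan branching, differed by −0.99 on the log2 scale (SE 0.09, adjusted p = 5.40e-07 by edgeR). Its exon bases are shared to 91.9% with 1 antisense gene, whose normalized counts of 797, 758 and 760 in siNC nearly equal those of MGAT2 (801, 761 and 764), so the reads of this pair cannot be told apart. AGR2, a disulfide isomerase of secretory epithelia (−1.03), AQP3, a water and glycerol channel (−0.91), PCDH7, a protocadherin (−1.08), PTPRZ1, a receptor phosphatase (−0.97), and CNTNAP1, a contactin-associated membrane protein (−1.13), also fell. CNTNAP1 shares 12.3% of its exon bases with genes on the other strand. CYB5R2, a cytochrome b5 reductase, fell by 0.90 on the log2 scale.

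HAS2, which makes hyaluronan, CD44, its main surface receptor, and RDX, radixin, which links CD44 and other membrane proteins to actin, were each lower. Normalized counts of HAS2 were 1190, 1226 and 1259 in siNC and 637, 635 and 695 in siANKRD10-1 (log2 fold change −0.90, SE 0.07, adjusted p = 1.06e-07 by edgeR). CD44 had 7184, 7374 and 7564 in siNC and 4770, 4899 and 4685 in siANKRD10-1 (log2 fold change −0.62, SE 0.05, adjusted p = 5.22e-07 by edgeR). For RDX the counts were 7333, 7232 and 7012 in siNC and 3798, 4161 and 3742 in siANKRD10-1 (log2 fold change −0.88, SE 0.06, adjusted p = 1.67e-08 by edgeR). In each of these genes the highest siANKRD10-1 library was well below the lowest siNC library. The relatives of RDX, ezrin (EZR, 0.01) and moesin (MSN, 0.14), did not pass the test, nor did HAS3 (−0.14). Of 12 tested genes of hyaluronan synthesis, breakdown and binding, a list made after the values were seen, 2 were higher and 2 lower. HYAL1, a hyaluronan breakdown gene, was among the higher ones. When single libraries were left out its log2 fold change ran from 1.38 to 2.38, and its call was lost in 5 of these fits.

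Among genes of actin filaments, TPM4, a tropomyosin, had 12592, 12598 and 12954 normalized counts in siNC and 19625, 19219 and 21526 in siANKRD10-1. This was a difference of 0.66 on the log2 scale (SE 0.06, adjusted p = 4.36e-07 by edgeR). The antisense gene CTD-2231E14.2, which overlaps 8.79% of the exon bases of TPM4, was higher by 0.84. TPM1 was higher by 0.23, a call lost without siNC replicate 1 or siANKRD10-1 replicate 1 (adjusted p up to 0.089 by edgeR), while TPM2 (0.13) and TPM3 (0.06) did not pass.

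Matrix proteases and plasminogen activators moved in both directions. Of 23 tested, 4 were higher and 9 were lower (17.4% and 39.1%, beside 5.08% and 5.52% of all tested genes), with a median of −0.02 beside 0.00 for all genes. The lower members numbered 6 without siNC replicate 1, siANKRD10-1 replicate 1 or siANKRD10-1 replicate 3, and 7 without siNC replicate 2. In each of these fits 3 members were higher. MMP13, a collagenase on chromosome 11 of GRCh38 from 102942995 to 102955734, had 1025, 923 and 1100 normalized counts in siNC and 2139, 1989 and 2177 in siANKRD10-1. Its log2 fold change was 1.05 (SE 0.07, adjusted p = 2.09e-08 by edgeR). MMP1, another collagenase of the same cluster, from 102789920 to 102798160, went the other way, with 2818, 3085 and 3265 in siNC and 1785, 1781 and 1760 in siANKRD10-1. Its log2 fold change was −0.78 (SE 0.06, adjusted p = 1.81e-07 by edgeR). WTAPP1, a pseudogene transcript that runs through MMP1 on the opposite strand and shares 7.96% of its own exon bases with its neighbours, fell by 0.84 on the log2 scale. The other lower members included SERPINB2 (−0.53), TIMP2 (−0.44), MMP10 (−0.42) and urokinase (PLAU, −0.29). CTSS, the lysosomal protease cathepsin S, had 1258, 1206 and 1275 normalized counts in siNC and 722, 677 and 693 in siANKRD10-1 (log2 fold change −0.84, SE 0.07, adjusted p = 1.81e-07 by edgeR).

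Integrins and laminins, which anchor epithelial cells to the basement membrane, were lower in 7 of 23 cases and higher in 1 (30.4% and 4.35%, median −0.07). CD44 was counted in this list, and ITGA6 (−0.43), ITGB8 (−0.46) and ITGA3 (−0.32) followed it. The number of lower members was 4 without siNC replicate 1 or without siNC replicate 2.

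Epithelial markers were lower in 10 of 33 cases (30.3%) and higher in 0 (1 at an unadjusted p under 0.05 by edgeR, 0 by DESeq2), with a median of −0.14. KRT5, a basal keratin, had 27977, 28942 and 28767 normalized counts in siNC and 21725, 21405 and 21705 in siANKRD10-1, which was a difference of −0.40 on the log2 scale (SE 0.05, adjusted p = 4.40e-05 by edgeR). KRT13, a keratin of stratified mucosa, fell by 0.79, the membrane trafficking gene MAL2 by 0.42 and E-cadherin (CDH1) by 0.33 on the log2 scale. Between 8 and 11 members were lower when any 1 library was left out. Of 29 tested mesenchymal markers, 5 were higher and 3 were lower, with a median of 0.13. FN1 had 72980, 69217 and 64421 normalized counts in siNC and 96039, 102870 and 87523 in siANKRD10-1 (log2 fold change 0.47, SE 0.06, adjusted p = 9.52e-05 by edgeR). Vimentin (VIM) was higher by 0.35, whereas the receptor tyrosine kinase AXL was lower by 0.30 and N-cadherin (CDH2) by 0.18. The number of higher members was 3 without siNC replicate 1 and 2 without siANKRD10-1 replicate 1, and that of lower members was 1 without any of siNC replicates 1 and 2 and siANKRD10-1 replicates 1 and 3. The fibroblast marker sum given above, most of it COL1A1 and THY1 counts, was also higher in siANKRD10-1, and its part in these values was not tested. In the list of 14 tested urothelial differentiation genes, 0 were higher and 2, KLF5 (−0.41) and GRHL3 (−1.63), were lower. GRHL3 had a mean of 33.5 normalized counts in siNC and 10.8 in siANKRD10-1, and its call was lost without siNC replicate 1 or siANKRD10-1 replicate 1 (adjusted p up to 0.104 by edgeR).

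IVL and FLG, genes of squamous differentiation, were higher. IVL, involucrin, which is crosslinked into the envelope of squamous cells, had 736, 762 and 800 normalized counts in siNC and 1592, 1536 and 1521 in siANKRD10-1. All siANKRD10-1 libraries were close together and above siNC, with a difference of 1.02 on the log2 scale (SE 0.06, adjusted p = 1.49e-08 by edgeR). FLG, filaggrin, had 90.6, 86.1 and 60.3 in siNC and 166, 186 and 130 in siANKRD10-1 (log2 fold change 1.02, SE 0.18, adjusted p = 0.00109 by edgeR), and remained at 0.392 RPKM or less. KRT6B rose by 1.00 on the log2 scale from 96.5 to 192 mean normalized counts, while its near-identical copies KRT6A (−0.12) and KRT6C (−0.35) did not pass, and reads can be split unevenly among such copies. In the epidermal differentiation complex, the cluster on chromosome 1 that holds IVL and FLG, 2 of 24 tested genes were higher and 6 were lower. The lower ones included the calcium-binding genes S100A8 (−0.61), S100A9 (−0.36) and S100A6 (−0.56), and 3 were lower without siANKRD10-1 replicate 1. Of 21 keratin genes, 2 were higher and 7 lower. The last 2 lists were chosen after the values were seen, and their counts are a description.

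Immediate early and AP-1 genes, which respond to growth factor signals within minutes, had the lowest median of the lists with more than 2 tested members, at −0.23, with 10 of 31 lower (32.3%) and 1 higher (3.23%). FOS had 1087, 1148 and 1187 normalized counts in siNC and 766, 654 and 752 in siANKRD10-1 (log2 fold change −0.66, SE 0.07, adjusted p = 1.47e-05 by edgeR). Its relatives FOSB (−0.54) and FOSL1 (−0.47), the early transcription factor EGR1 (−0.31) and the growth factor feedback inhibitor SPRED1 (−0.53) were also lower, and DUSP4 (0.27), a MAP kinase phosphatase, was the higher member. Between 9 and 11 members were lower when any 1 library was left out.

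NF-κB feedback genes and targets were lower in 10 of 34 cases (29.4%) and higher in 2 (5.88%), with a median of −0.11. Prostaglandin synthase PTGS2 (−0.50), the cytokine LIF (−0.50), the chemokine CXCL5 (−0.41) and the inhibitor NFKBIA (−0.23) were lower, while IL1B (0.23) and SOD2 (0.21) were higher. The lower members numbered 6 without siNC replicate 2 and 5 without siANKRD10-1 replicate 1, and the higher ones numbered 0 without either of these or without siNC replicate 1. Interferon-stimulated genes were lower in 10 of 47 cases (21.3%) and higher in 4 (8.51%), with a median of −0.14. SAMD9L (−0.67), IFIT3 (−0.47) and the RNA sensor DDX58 (−0.49) were lower, and EPSTI1 (0.38) and IRF9 (0.30) were higher. These counts were 6 lower and 2 higher both without siNC replicate 2 and without siANKRD10-1 replicate 1.

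The list of RNA interference machinery, which also holds genes of microRNA processing, was lower in 5 of 13 genes (38.5%) and higher in 0 (1 at an unadjusted p under 0.05 by edgeR, 0 by DESeq2), with a median of −0.02. The slicer AGO2 differed by −0.42 on the log2 scale (SE 0.07, adjusted p = 0.000492 by edgeR) and its partner TNRC6A −0.52 (SE 0.10, adjusted p = 0.00165 by edgeR). DGCR8 (−0.22), DICER1 (−0.29) and AGO3 (−0.29) were the other lower members. The number was 2 without siNC replicate 1, siNC replicate 2 or siANKRD10-1 replicate 1, and 3 without siANKRD10-1 replicate 3.

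In the MYC network 1 gene passed the test. MYC had 1496, 1438 and 1547 normalized counts in siNC and 1674, 1471 and 1598 in siANKRD10-1, and the groups overlapped. Its log2 fold change was 0.08 (SE 0.06, adjusted p = 0.469 by edgeR), and that of its partner MAX was −0.15 (SE 0.07, adjusted p = 0.198 by edgeR). Of 12 tested network genes, 0 were higher and 1, MLXIPL (−0.64), was lower, with a median of −0.03. MLXIPL kept its call only without siNC replicate 2 among the 6 fits that left out a library (adjusted p up to 0.116 by edgeR). For the 7 MYC targets that the study followed by qRT-PCR, 0 passed in either direction, with log2 fold changes from −0.17 (WDR43) to 0.14 (PGK1) and a median of 0.05. At an unadjusted p under 0.05, PGK1 was higher and WDR43 lower, and DESeq2 called both, 1 in each direction. With any 1 library left out, edgeR called 0 higher and at most 1 lower. Nucleolar ribosome assembly genes, a process under MYC, were higher in 4 of 40 cases (10%) and lower in 1 (2.5%), with a median of 0.05. NOLC1, a nucleolar phosphoprotein, had 6085, 6373 and 6370 normalized counts in siNC and 9194, 9824 and 9672 in siANKRD10-1 (log2 fold change 0.61, SE 0.05, adjusted p = 7.86e-07 by edgeR), and TCOF1 (0.38) and PES1 (0.35) were also higher.

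**Figure D3:**
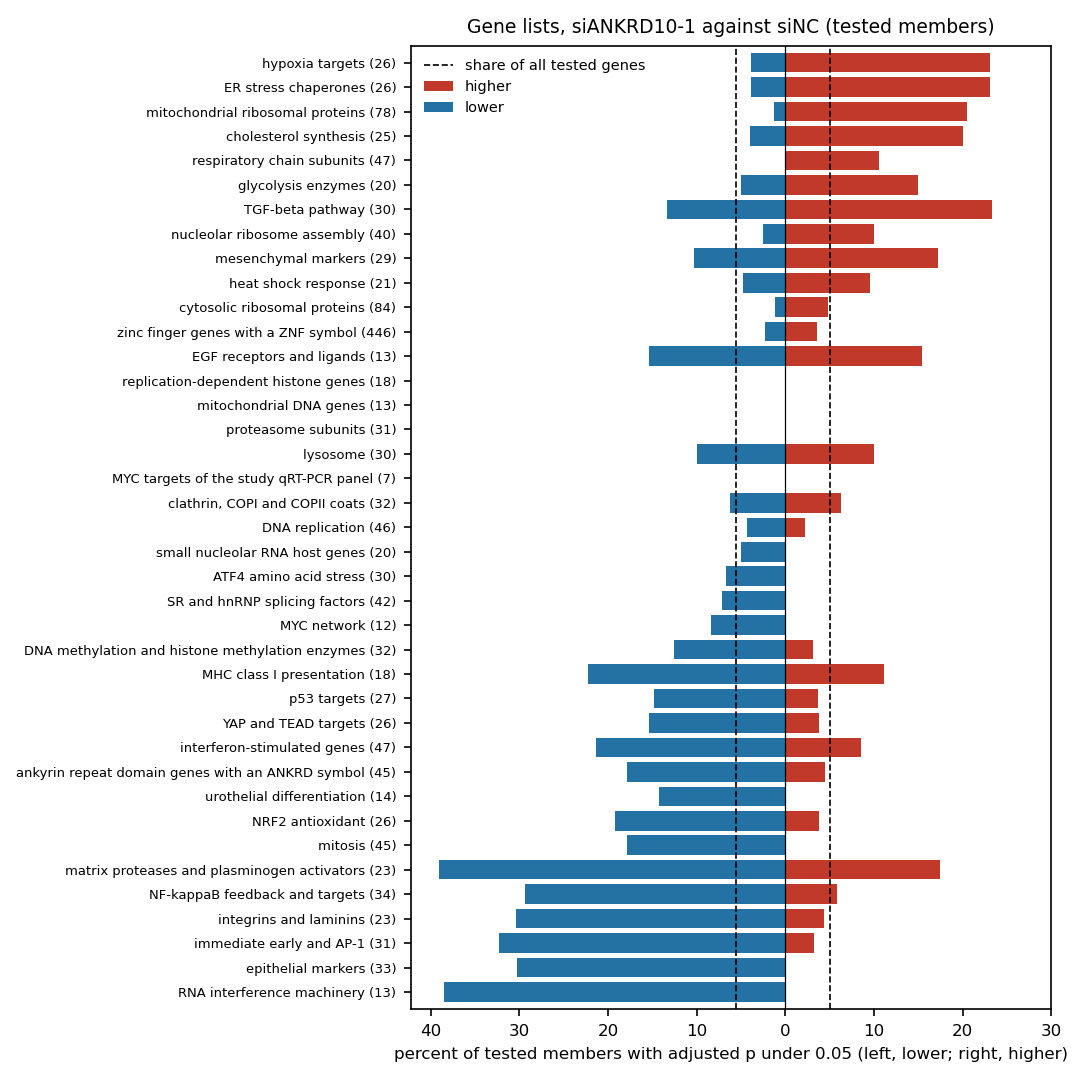
Percent of the tested members that passed the test, for the gene lists other than the 7 made after the values were seen and the fibroblast, endothelial and leukocyte markers (horizontal axis, lower to the left in blue, higher to the right in red), with the number of tested members in brackets and dashed lines at the shares of all tested genes, 5.52% and 5.08%. Among the lists drawn, RNA interference, protease, immediate early, integrin, epithelial and NF-κB reach furthest to the left, and TGF-β, hypoxia, ER chaperones and mitochondrial ribosomal proteins furthest to the right.

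The 2 siRNAs were compared directly, siANKRD10-1 against siANKRD10-2, with no control library in the fit. Of 18832 genes tested, 6968 (37%) differed, 3543 (18.8%) higher and 3425 (18.2%) lower with siANKRD10-1. Mitochondrial genes took between 8.92% and 10.5% of the counts in the siANKRD10-2 libraries and between 11.9% and 13% in siANKRD10-1. Total counts in siANKRD10-2 were between 28511029 and 32141257. The cell background of the siANKRD10-2 libraries is not settled, as stated above. The part of these library traits and of the background in the differences was not tested. Both siRNAs share the same siNC libraries, so the changes against siNC are given side by side and no likeness is read from them. Among the 12 largest rises after siANKRD10-1, 8 were higher than with siANKRD10-2 and 4 showed no difference by the direct test. Among the 12 largest falls, 7 were lower than with siANKRD10-2, 1 was higher and 4 showed no difference. These genes were picked by their siANKRD10-1 values, and the direct test reuses the siANKRD10-1 libraries. That choice favours values further from siNC than with siANKRD10-2, so these counts are a description. The same holds for the 1986 DEGs tested directly, of which 1199 differed. Of the higher DEGs, 451 were higher and 106 lower than with siANKRD10-2, and of the lower DEGs 519 were lower and 123 higher.

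ROS1 was in the group with no called difference, at 1.72 after siANKRD10-1 and 1.58 after siANKRD10-2 (direct difference 0.13, SE 0.08, adjusted p = 0.18 by edgeR). MMP13 was at 1.05 and 0.98 (direct difference 0.07, SE 0.06, adjusted p = 0.388 by edgeR), HAS2 at −0.90 and −0.93 (0.02, SE 0.08, adjusted p = 0.855 by edgeR) and AQP3 at −0.91 and −0.88 (−0.04, SE 0.07, adjusted p = 0.714 by edgeR). AGR2, PLCB2, IL7R and CYB5R2 also had no called difference. A missed threshold does not show that the siRNAs act alike.

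Other genes separated the siRNAs. WBSCR22 was at −1.24 after siANKRD10-1 and −0.11 after siANKRD10-2, a direct difference of −1.13 (SE 0.06, adjusted p = 1.99e-12 by edgeR). SEC23A was at −0.97 and −0.23 and RDX at −0.88 and 0.35. NNMT was at 1.02 and 0.06, a direct difference of 0.96 (SE 0.07, adjusted p = 1.07e-09 by edgeR). IVL, at 1.02 and −0.56, and FLG, at 1.02 and −1.41, lay on opposite sides of siNC, and so did CNTNAP1 at −1.13 and 1.52. DIO2 was at 2.53 and 0.32. CCND1 was the case of a larger change with the other siRNA, at −1.18 and −1.48 (direct difference 0.30, SE 0.06, adjusted p = 0.000416 by edgeR).

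**Figure D4:**
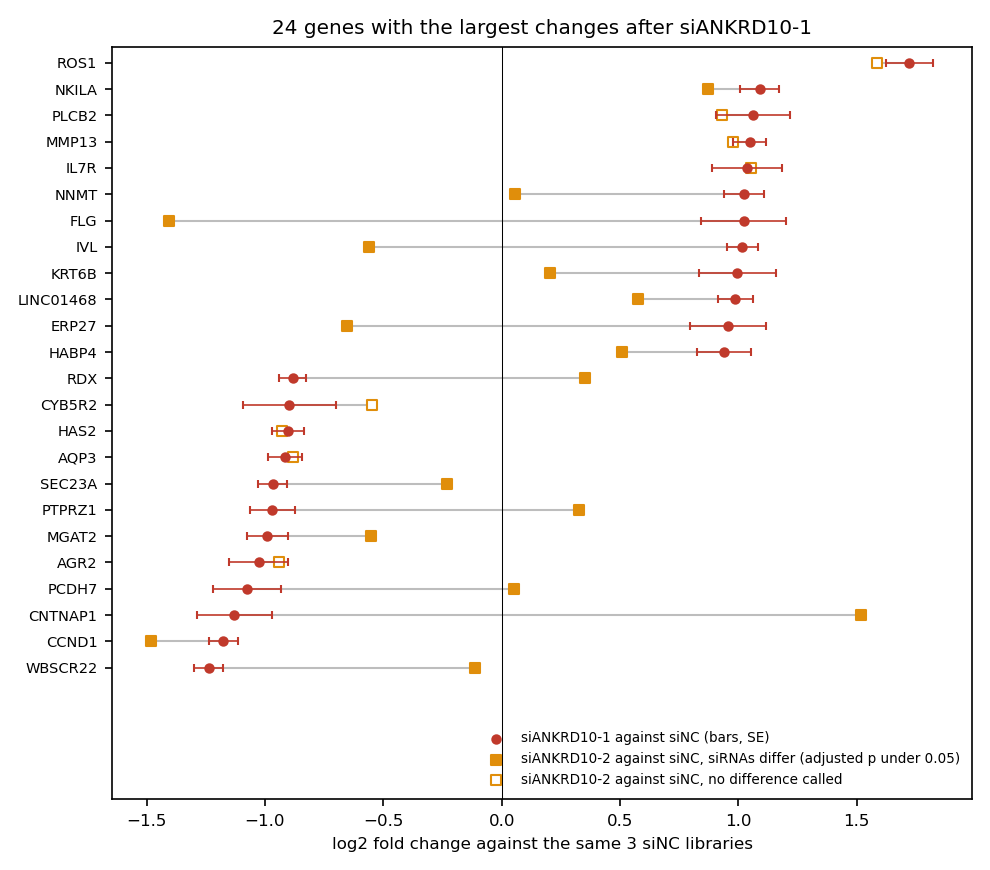
Log2 fold change against the same 3 siNC libraries (horizontal axis) for the 24 genes named for the largest changes after siANKRD10-1. Red circles with SE bars show siANKRD10-1 and orange squares siANKRD10-2, filled where the direct test called a difference between the siRNAs. The circle and the square lie close together for ROS1, MMP13, HAS2 and AQP3 and far apart for FLG, IVL, CNTNAP1 and WBSCR22.

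MYC itself differed between the siRNAs, by 0.68 on the log2 scale in the direct comparison (SE 0.07, adjusted p = 5.22e-08 by edgeR), with values against siNC of 0.08 after siANKRD10-1 and −0.60 after siANKRD10-2. Of all genes tested in the direct comparison, 18.8% were higher and 18.2% lower with siANKRD10-1, and the list counts that follow stand beside these shares. Of the 7 qRT-PCR targets, 6 were higher with siANKRD10-1 than with siANKRD10-2 and 0 were lower, with a median direct difference of 0.44. The exception was WDR43 (−0.11, adjusted p = 0.128 by edgeR). Of the 84 cytosolic ribosomal protein genes, 76 were higher with siANKRD10-1 in the direct comparison (median 0.48), beside 4 higher and 1 lower against siNC. In the same comparison 11 of the 13 protein-coding genes of mitochondrial DNA were higher and 1 was lower. The part of the unsettled background of the siANKRD10-2 libraries in these differences was not tested.

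ANKRD10-1 overexpression against Vector has no library in common with the knockdown. There 1291 of 20457 genes (6.31%) passed, 717 higher (3.5%) and 574 lower (2.81%). In the 18263 genes tested in both experiments, 269 were DEGs in both. This is 13.6% of the 1981 knockdown DEGs, beside 6.31% of all genes tested with overexpression. It is 21.2% of the 1271 overexpression DEGs, beside 10.6% of all genes tested after siANKRD10-1. Of the 269, 196 (72.9%) differed in the same direction, 99 higher and 97 lower in both, and 73 (27.1%) in opposite directions, ANKRD10 among them. The share of all genes with the same direction in both experiments was not computed, so these counts are a description. The cell background of the overexpression and Vector libraries is not settled, as stated above, and its part in these counts was not tested. Of the 12 largest rises after siANKRD10-1, 1 passed with overexpression, and of the 12 largest falls 0 did.

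That gene was MMP13, higher by 1.05 after siANKRD10-1 and lower by 1.45 with overexpression (log2 fold change −1.45, SE 0.07, adjusted p = 2.01e-10 by edgeR). In the other opposite direction, the cystine transporter SLC7A11 was at −0.77 after siANKRD10-1 and 0.81 with overexpression, and FOSL1 was at −0.47 and 0.42. ROS1 (−0.24), CCND1 (0.00), WBSCR22 (0.02), RDX (−0.04) and IVL (−0.15) did not pass with overexpression. Genes lower in both included SAMD9L (−0.67 and −1.11), FOS (−0.66 and −0.52), MMP1 (−0.78 and −0.38) and WTAPP1 (−0.84 and −0.43), and genes higher in both included NOLC1 (0.61 and 0.31) and SDF2L1 (0.61 and 0.50), a chaperone partner of the endoplasmic reticulum. Interferon-stimulated genes were lower in 45 of 51 cases with overexpression, with a median of −1.40, a shift much larger than the −0.14 after siANKRD10-1, and its part in the genes lower in both was not tested.

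**Figure D5:**
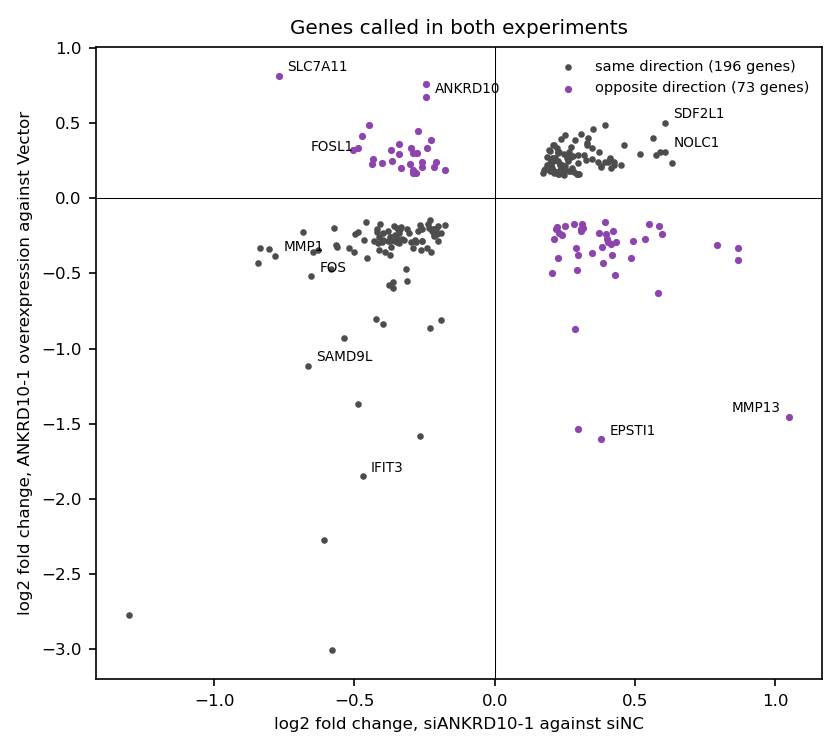
Log2 fold change after siANKRD10-1 (horizontal axis) against that with ANKRD10-1 overexpression (vertical axis) for the 269 genes called in both, with 196 in the same direction in grey and 73 in opposite directions in purple. MMP13 lies furthest to the right of the genes lower with overexpression, at 1.05 and −1.45, and IFIT3, at −0.47 and −1.85, is among the interferon-stimulated genes in the lower left.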

How the data were processed

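Poly(A) RNA from 5637 cells was sequenced, and the authors deposited raw counts of reads per gene, without normalization. The submitters' processing notes name Trimmomatic 0.36, featureCounts of Subread 1.5.1 and GRCh38, and the study names Cutadapt, HISAT2 and StringTie. The kit was stranded, but whether counting used strand was not given in the sources used here, so overlapping genes are uncertain. MGAT2 and its antisense gene had nearly equal counts, so for this pair the counts did not separate the strands. Other named genes also share exon bases with genes on the other strand, among them TPM1 (22.7%) and MRPS25 (22.2%). In R 4.3.3, low genes were removed with the filterByExpr function (edgeR 4.0.16, at least 10 counts, total of 15) and libraries were scaled by TMM and tested by the quasi-likelihood test over the libraries of each comparison (prior count 0.125, adjusted p under 0.05). Normalized counts are on the scale of the TMM library sizes, and RPKM used the gene lengths deposited by the authors. Ranked genes had a current RefSeq symbol (15248 of those tested), an adjusted p under 0.05, at least 100 mean normalized counts and no overlap between groups. Of these, the 12 largest rises and falls and the 8 smallest p-values in each direction were named. Genes without such a symbol were tested but not ranked. Named without that filter were up to 4 members with the smallest p-values in each of 42 lists (and 7 lists added after values were seen), ANKRD10, RBPMS, MYC, MAX and the qRT-PCR panel, with further members named beside their list's count. RBPMS had a log2 fold change of −0.11 (adjusted p = 0.681 from edgeR). Members and lists were chosen with earlier results of these data known. Alternatives used DESeq2 1.42.0 and limma 3.58.1 (voom), and the statistics were tested on simulated data. The knockout and ANKRD10-2 overexpression libraries were not used here. The siRNA sequences were not analysed here.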

Additional observations from a re-analysis of the deposited data

How the results depend on the processing

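The deposited counts gave 954 higher and 1037 lower genes, and when single libraries were left out these numbers ran from 429 to 1089 and from 520 to 1341. Genes different between the siRNAs ran from 5606 to 7101, and the log2 fold change of ANKRD10 from −0.28 to −0.22, past the threshold in 4 of 6 fits. Requiring a change of at least 1 on the log2 scale left 42 higher and 27 lower genes, 514 between the siRNAs and 80 with overexpression. DESeq2 called 847 higher and 1006 lower genes, limma voom 954 and 1015, scaling by DESeq2's size factors 919 and 1072, upper-quartile scaling 1104 and 904, no filter 1062 and 1220, a minimum of 50 counts in 3 libraries 964 and 1110, and a fit over all 9 knockdown libraries 1116 and 1212. Deviations of same-numbered siNC and siANKRD10-1 libraries had correlations of −0.02, 0.07 and 0.25. Those of different-numbered libraries ran from −0.24 to 0.21, so the replicate numbers were not taken to pair the samples. Under the replicate block 1324 genes were higher and 1454 lower, sharing 1989 with the 1991 genes above. The block gave ANKRD10 a log2 fold change of −0.24, 6351 genes between the siRNAs and 1309 with overexpression. ANKRD10 aside, the rule named 208 genes, of which 161 were called. Of these 161, 44 lost the call in at least 1 fit that left out a library, 5 under DESeq2 and 0 under the block, and 0 changed sign. Of the named genes not called, 13 passed under the block and 6 under DESeq2. For 37518 genes of the table the counts were too low for a test.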

Other observations

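Mitochondrial ribosomal protein genes, which build the ribosome of the organelle, were higher in 16 of 78 cases (20.5%) and lower in 1 (1.28%). The shares of all tested genes were 5.08% and 5.52%. The median log2 fold change of the list was 0.15. MRPS25 (0.44) and MRPS33 (0.42) led the higher members. The number of higher members was 9 without siNC replicate 1, 3 without siNC replicate 2, 7 without siANKRD10-1 replicate 1, 26 without siANKRD10-1 replicate 2 and 6 without siANKRD10-1 replicate 3, so 1 library can decide it. Respiratory chain subunits were higher in 5 of 47 cases and lower in 0 (median 0.08), and 1 was higher without siNC replicate 1. The 13 protein-coding genes of mitochondrial DNA had 0 calls by edgeR, DESeq2 and limma voom, 0 at an unadjusted p under 0.05, and a median of −0.07.

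The lists of this paragraph stand beside shares of 5.08% higher and 5.52% lower among all tested genes. Hypoxia targets were higher in 6 of 26 cases (23.1%) and lower in 1 (3.85%), with a median of 0.05. P4HA2 (0.42), a collagen hydroxylase, and NDRG1 (0.40) led the higher ones, and 2 were higher without siNC replicate 2. Chaperones of the endoplasmic reticulum were higher in 6 of 26 cases and lower in 1 (median 0.11), led by SDF2L1 (0.61) and CRELD2 (0.40), and 2 were higher without siNC replicate 1, siNC replicate 2, siANKRD10-1 replicate 1 or siANKRD10-1 replicate 3. Cholesterol synthesis genes were higher in 5 of 25 cases and lower in 1 (median 0.09). The entry enzyme HMGCS1 (−0.39) was the lower member and INSIG1 (0.44), a sterol sensor partner, the highest, and 2 were higher without siNC replicate 2 or siANKRD10-1 replicate 1. In the TGF-β pathway 7 of 30 genes were higher and 4 lower (median −0.01). The activin subunit INHBA rose (0.53), while FST, the secreted antagonist of activin, fell (−0.78), as did the inhibitory SMAD6 (−0.70), and 4 were higher without siNC replicate 1 or siNC replicate 2. Of 45 genes with an ANKRD symbol, 2 were higher and 8 were lower (median −0.07), ANKRD10 among them, with ANKRD40 (−0.47) and ANKRD50 (−0.44) further from 0 than ANKRD10 (−0.24). The lower ones numbered 3 without siNC replicate 1 and 4 without siANKRD10-1 replicate 3, and 5 without siNC replicate 2 or siANKRD10-1 replicate 1.

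Calls in the remaining lists are given as counts. They stand beside 5.08% higher and 5.52% lower among all tested genes, and lists near these shares are not read as a result. Higher and lower numbered 3 and 1 of 20 glycolysis enzymes, 1 and 5 of 26 NRF2 antioxidant genes, 1 and 4 of 27 p53 targets, 0 and 2 of 30 ATF4 amino acid stress genes, 2 and 1 of 21 heat shock genes, 3 and 3 of 30 lysosomal genes, 1 and 4 of 26 YAP and TEAD targets, and 2 and 2 of 13 EGF receptors and ligands. They numbered 2 and 4 of 18 MHC class I genes, 0 and 3 of 42 SR and hnRNP splicing factors, 0 and 0 of 31 proteasome subunits, 1 and 4 of 32 DNA and histone methylation enzymes, 0 and 0 of 18 replication-dependent histone genes, 16 and 10 of 446 ZNF genes, and 0 and 1 of 20 small nucleolar RNA host genes. In lists chosen after the values were seen they were 0 and 2 of 9 genes of ezrin, radixin, moesin and cortical linkers, 0 and 2 of 13 N-glycan branching enzymes, and 2 and 2 of 27 actin filament genes. At an unadjusted p under 0.05 by edgeR, 9 proteasome subunits were higher and 0 lower, and 0 histone genes were higher and 1 lower, and DESeq2 called 0 in both lists. In the other lists with 0 higher, 1 ATF4 gene, 6 splicing factors, 2 small nucleolar RNA host genes, 1 ezrin, radixin or moesin linker and 1 N-glycan enzyme were higher at that p, and DESeq2 called 1 of the splicing factors and limma voom 1 of the host genes higher. Left-out libraries moved several of these counts. Higher ZNF genes numbered 6 without siNC replicate 1 or 2, 7 without siANKRD10-1 replicate 1 and 11 without siANKRD10-1 replicate 3, and lower ones numbered 3 without siNC replicate 2, 4 without siNC replicate 1, 5 without siANKRD10-1 replicate 1, 6 without siANKRD10-1 replicate 3, 19 without siANKRD10-1 replicate 2 and 21 without siNC replicate 3. Without siNC replicate 3, 8 methylation enzymes and 7 YAP and TEAD targets were lower, and 5 proteasome subunits and 2 splicing factors were higher. Without siANKRD10-1 replicate 2, 7 methylation enzymes, 7 YAP and TEAD targets and 6 splicing factors were lower, and 2 proteasome subunits, 4 splicing factors and 5 heat shock genes were higher. With siNC replicate 1, siNC replicate 2, siANKRD10-1 replicate 1 or siANKRD10-1 replicate 3 left out, 0 lysosomal and 0 MHC class I genes were higher and 2 p53 targets were lower, and heat shock genes numbered 0 higher, or 1 without siANKRD10-1 replicate 1. Lower methylation enzymes numbered 2 without siNC replicate 2 or siANKRD10-1 replicate 1, lower MHC class I genes 2 without siNC replicate 2, and lower NRF2 genes 3 without siNC replicate 2 or 3 or siANKRD10-1 replicate 1 or 2. Counts in the remaining lists of this paragraph moved by at most 1 gene. Of the 84 cytosolic ribosomal protein genes, 18 were higher without siNC replicate 3, 10 without siANKRD10-1 replicate 2 and 2 with any other library left out.

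The E-box CACGTG, the motif bound by MYC with MAX and its own reverse complement, was searched in RefSeq promoter windows of GRCh38 from 250 bases before to 50 bases after the start. It was present in 12.4% of the 11547 tested genes with a window, in 12.8% of 703 higher genes and in 11.2% of 747 lower genes. The match of letters does not show binding.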
